A study of Mus musculus with 8 samples.

Results

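The response described here is how the balance between RNA recovered with hnRNP L and RNA present in the cells differed after Adriamycin in p53-/- mouse embryonic stem cells. It rests on 4 libraries, 2 from immunoprecipitated RNA and 2 from input RNA, with 1 library in each group. For each gene the log2 RIP/input ratio with Adriamycin was taken minus the log2 RIP/input ratio of untreated cells, and this difference is called the shift. A gene was included when it had 5 FPKM (a fragment count per transcript length and library size) or more in both p53-/- inputs. That rule kept 7222 of the 23560 genes in the files. It uses input level alone, so the shift itself did not choose the members.

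The groups were p53-/- cells with Adriamycin and p53-/- cells left untreated, each as RIP and as input. The same 4 kinds of library from p53+/+ cells were set beside them. Treated cells received 0.5 uM Adriamycin over 8 hours. All cells were embryonic stem cells of C57BL/6X129Sv mix background at less than 20 passages, grown with leukemia inhibitory factor. Input is described in the labels as RNA carrying a poly A tail, and RIP as the RNA recovered with an antibody to hnRNP L. A control antibody was not analysed here, so a RIP value holds bound RNA and any background recovered with it. With 1 library in each group there was no replicate check, no test was made, and every difference below is between single libraries. Whether a line was 1 clone is not given in the sources used here.

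hnRNP L is a mainly nuclear RNA-binding protein that recognises CA-rich stretches and is best known as a regulator of alternative splicing and of RNA stability. RNA immunoprecipitation recovers transcripts associated with such a protein, and setting them against input takes account of abundance. Input here is RNA carrying a poly A tail, so for RNA without a tail the ratio can also hold that selection. Adriamycin (doxorubicin) poisons topoisomerase II and breaks DNA, which in wild-type cells stabilises the transcription factor p53, and p53-/- cells show what remains without it.

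The 4 p53-/- libraries held 4.94 Gb (Adriamycin RIP), 7.48 Gb (Adriamycin input), 3.56 Gb (untreated RIP) and 6.80 Gb (untreated input) of bases on annotated transcripts. Trp53, the targeted gene, stood in p53-/- RIP at 124 FPKM with Adriamycin and 122 FPKM untreated, and in p53-/- input at 121 FPKM with Adriamycin and 140 FPKM untreated. These values are over whole transcripts and not per exon, so Trp53 does not check the genotype label. All 10 embryonic stem cell markers were at 1 FPKM or more in every library. The 19 fibroblast markers summed in p53-/- cells to 2902 FPKM (Adriamycin RIP), 1238 FPKM (Adriamycin input), 3144 FPKM (untreated RIP) and 1055 FPKM (untreated input), with none at 0. In p53+/+ libraries the same sum lay between 219.6 and 375 FPKM, with Col3a1, Dcn and Lum listed at 0 in each. Bgn alone held 2360 FPKM of the p53-/- RIP sum with Adriamycin and 2508.5 FPKM of that untreated. In p53-/- input Bgn stood at 147 FPKM with Adriamycin and 119 FPKM untreated. Of 8 primitive endoderm markers, 2 reached 1 FPKM in each p53-/- library.

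Relative to the scaling of each library, which holds a typical gene level, most transcripts differed little in RIP/input ratio. A change of all transcripts together cannot be seen in FPKM. Leaving out 16 members set aside as short noncoding RNAs by symbol or by length under 300 bases, the median shift of the other 7206 was -0.04 on the log2 scale. The 5th and 95th percentiles were -0.50 and 0.42, and 92.5% of these members lay within 0.5 of zero. Across the 7206 genes the ratio with Adriamycin and the ratio in untreated cells had a Pearson correlation of 0.97 and a Spearman correlation of 0.96, as a description of genes that share the libraries' scaling. The RIP difference between Adriamycin and untreated had an SD of 0.29 across genes and the input difference an SD of 0.18. The shift is the RIP difference minus the input difference. Its correlation with each part was therefore in part built in, at 0.80 with the RIP difference and -0.29 with the input difference.

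A shift of 1 or more was found for 8 of the 7206 members (0.111%) and a shift of -1 or less for another 8 (0.111%). Of the 8 high members, 5 passed 0.5 in size in the RIP difference alone, 2 in the input difference alone and 1 in both. Of the 8 low members, 7 passed it in RIP alone and 1 in input alone. Over all 7206 members, 1.76% had a RIP difference of 0.5 or more and 8.58% one of -0.5 or less, and the same bounds in input took 0.18% and 1.68%. At the smaller bound, 169 members (2.35%) had a shift of 0.5 or more and 374 (5.19%) a shift of -0.5 or less. The RIP difference was the larger of the pair in 137 of the 169 and in 347 of the 374. Just inside the input limit lay A4galt, Zfp260 and Csf2ra, with shifts of -0.59, -0.03 and 0.16. Just outside it lay Sp3os, Pcnx3 and Rad52, with shifts of -0.32, 0.11 and 0.44.

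**Figure D1:**
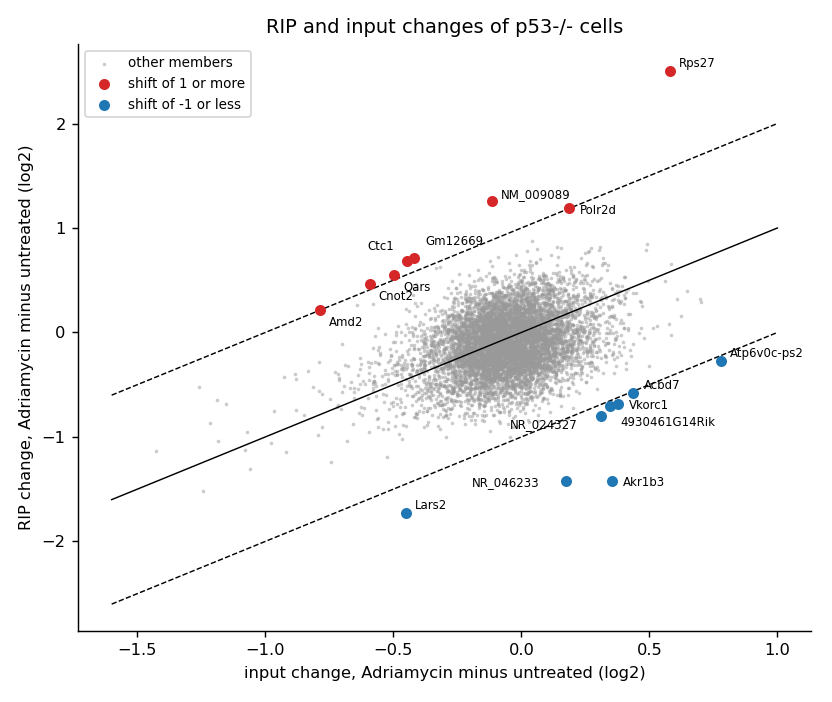
Each point is 1 of 7206 members in p53-/- cells, with the input difference between Adriamycin and untreated on the x axis and the RIP difference on the y axis, both log2. The solid line marks a shift of 0 and the dashed lines shifts of 1 and -1, and 8 named members lie at or beyond each dashed line.

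Among the high members, only NM_009089 had a span that no other gene with a mean of 1 FPKM or more overlapped (chromosome 11, 69547912 to 69571725 of mm9; 1 record of 5799 bases, not paired with a symbol here). In RIP it stood at 165 FPKM with Adriamycin and 63.7 FPKM untreated, and in input at 47.0 FPKM with Adriamycin and 47.5 FPKM untreated. The RIP library with Adriamycin stood apart while the inputs were close. Its shift was 1.37. The files give a lower and an upper bound for each FPKM, at a level not given in the sources used here, which cover estimation within a library. Taking those bounds at their most unfavourable, the shift of NM_009089 lay between 1.27 and 1.47. In p53+/+ cells its shift was 0.67.

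The other 7 high members had a span that another expressed gene overlapped, and for 6 of them the summed FPKM of both genes showed no such shift. Such a sum leans towards the gene with the higher FPKM, whether or not reads are shared. It therefore does not show what made the shift of either gene. Rps27, which encodes a protein of the small ribosomal subunit (chromosome 3, 90016589 to 90017570), stood in RIP at 64.1 FPKM with Adriamycin and 9.72 FPKM untreated, and in input at 151 FPKM with Adriamycin and 93.6 FPKM untreated. Its shift of 1.92 was the highest of all, and 2.02 in p53+/+ cells. Rps27rt overlaps it and held 1064 FPKM (Adriamycin RIP), 4059.6 FPKM (Adriamycin input), 1478 FPKM (untreated RIP) and 3756 FPKM (untreated input), far more than Rps27. Summed together, Rps27 and Rps27rt had a shift of -0.53, with the sign turned.

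Cnot2, a subunit of the Ccr4-Not complex that shortens poly A tails, showed the same kind of split (chromosome 10, 115922217 to 116018567). It stood in RIP at 12.7 FPKM with Adriamycin and 8.28 FPKM untreated, and in input at 11.1 FPKM with Adriamycin and 16.2 FPKM untreated, a shift of 1.06. NR_024327 has the same span and stood in RIP at 17.2 FPKM with Adriamycin and 28.5 FPKM untreated, and in input at 13.6 FPKM with Adriamycin and 9.95 FPKM untreated, a shift of -1.10. A high and a low member therefore came from 1 locus, whose summed shift was -0.21.

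The remaining overlaps were alike. Gm12669 had a shift of 1.13 alone and 0.23 summed with Glrx3. Qars, the glutaminyl-tRNA synthetase, had 1.05 alone and 0.005 with NM_001168270. Amd2 and Amd1, near-identical records for S-adenosylmethionine decarboxylase of polyamine synthesis, had 1.00 and -4.09 alone and 0.13 together, and Amd1 stood at 0.0126 FPKM in untreated input. Polr2d, a subunit of RNA polymerase II, had 1.00 alone and -0.37 with NM_027101, and stood in RIP at 2.64 FPKM with Adriamycin and 0.546 FPKM untreated. Ctc1, a component of the CST complex at telomeres, had a shift of 1.13. It stood in RIP at 10.004 FPKM with Adriamycin and 5.44 FPKM untreated, and in input at 7.08 FPKM with Adriamycin and 9.43 FPKM untreated. Its records of 4167 and 4164 bases had shifts of 2.86 and 0.31. The first was at 3.9999 FPKM in RIP with Adriamycin and 0.0153 FPKM untreated, so 1 of a pair of near-equal records carried the Ctc1 shift.

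**Figure D2:**
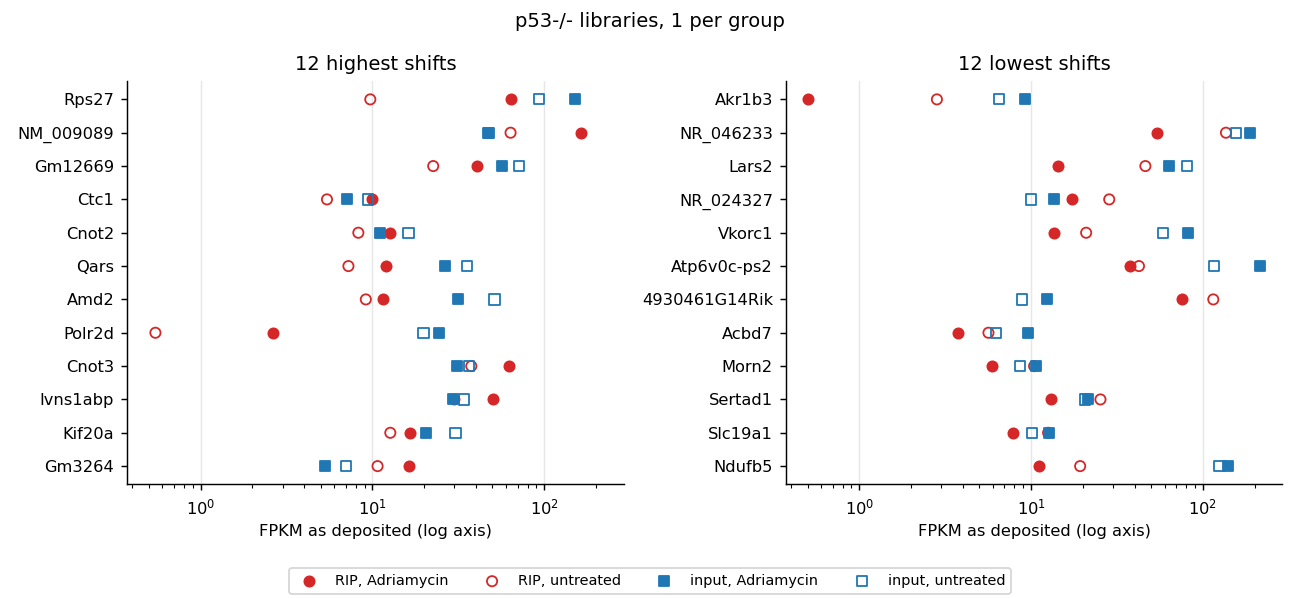
FPKM as deposited, on a log axis, of the 12 members with the highest and the 12 with the lowest shift in the 4 p53-/- libraries (filled, Adriamycin; open, untreated; circles, RIP; squares, input). NM_009089 reaches 165 FPKM in RIP with Adriamycin and 63.7 FPKM in untreated RIP at nearly equal inputs, while Lars2 shows 14.3 FPKM in RIP with Adriamycin and 46.3 FPKM in untreated RIP.

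On the low side, 5 of the 8 members had no expressed gene across their span. NR_046233 (chromosome 17, 39979942 to 39985774; 1 record of 5833 bases, not paired with a symbol here) stood in RIP at 54.1 FPKM with Adriamycin and 136 FPKM untreated. In input it stood at 188 FPKM with Adriamycin and 155 FPKM untreated. RIP was lower and input higher with Adriamycin, and the shift was -1.59, between -1.67 and -1.52 from the bounds, against -0.54 in p53+/+ cells. Without a symbol, the record could not meet the symbol rule that set some RNAs aside. Its kind of RNA is not given in the sources used here.

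Lars2, the mitochondrial leucyl-tRNA synthetase (chromosome 9, 123276058 to 123371782), stood in RIP at 14.3 FPKM with Adriamycin and 46.3 FPKM untreated. In input it stood at 63.5 FPKM with Adriamycin and 81.1 FPKM untreated. Both were lower with Adriamycin and RIP by more, for a shift of -1.28, between -1.43 and -1.12 from the bounds. In p53+/+ cells the shift of Lars2 was -0.22.

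Vkorc1, the vitamin K epoxide reductase subunit targeted by warfarin (chromosome 7, 135036577 to 135039131), stood in RIP at 13.6 FPKM with Adriamycin and 20.9 FPKM untreated, and in input at 82.4 FPKM with Adriamycin and 58.7 FPKM untreated. Its shift was -1.06. The noncoding record 4930461G14Rik stood in RIP at 75.5 FPKM with Adriamycin and 115 FPKM untreated, and in input at 12.4 FPKM with Adriamycin and 8.83 FPKM untreated, a shift of -1.05. For both genes RIP and input differed in opposite directions, and the bounds kept the shift below 0 (-0.61 and -0.60 at their upper ends). Acbd7, an acyl-CoA-binding protein, had a shift of -1.01 that the bounds do not separate from 0, with a range of -2.14 to 0.10.

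Akr1b3, an aldose reductase, had the lowest shift, -1.77, from low RIP values of 0.504 FPKM with Adriamycin and 2.83 FPKM untreated. Its input stood at 9.27 FPKM with Adriamycin and 6.48 FPKM untreated. Summed with Gm6644, which overlaps it at higher levels, the shift was -0.42. Atp6v0c-ps2 had -1.05 alone and -0.46 with Atp6v0c, which encodes the proteolipid of the vacuolar proton pump.

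Leaving out every member with an overlapping gene at a mean of 1 FPKM or more, 6341 members remained. Of these, 1 (0.0158%) had a shift of 1 or more, 5 (0.0789%) had -1 or less, 136 (2.14%) had 0.5 or more and 316 (4.98%) had -0.5 or less. The shares at 1 and -1 were smaller than in all 7206 members, while the shares at 0.5 were close to theirs. Whether overlap made the extreme values was not tested. Among the 5476 members with 1 transcript record, the bounds placed the whole shift above 0 in 685 and below 0 in 947. They did so in 109 of the 118 with a shift of 0.5 or more and in 266 of the 305 with -0.5 or less. These bounds say nothing of the spread between cultures, which these libraries do not measure.

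Below the bound of 1, members without an overlap that stood highest included the following, which were picked out after their values were seen. Rad21, a core cohesin subunit, stood in RIP at 47.2 FPKM with Adriamycin and 36.2 FPKM untreated, and in input at 56.0 FPKM with Adriamycin and 78.4 FPKM untreated, a shift of 0.85. Tfdp1, the dimerisation partner of E2F factors, stood in RIP at 41.6 FPKM with Adriamycin and 23.1 FPKM untreated at near-equal inputs of 50.9 FPKM with Adriamycin and 50.5 FPKM untreated, a shift of 0.81. For Rad21 the inputs carried the larger part of the shift, and for Tfdp1 RIP carried nearly all of it. Ivns1abp, a kelch-repeat protein, had 0.95, the splicing factor Wbp11 had 0.80 and the ubiquitin protease Usp8 had 0.77.

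The next lowest included Sertad1, Slc19a1, the reduced folate carrier, and Ndufb5, a subunit of respiratory complex I, with shifts of -0.95, -0.92 and -0.91. Sertad1 stood in RIP at 13.1 FPKM with Adriamycin and 25.3 FPKM untreated, with inputs of 21.4 FPKM with Adriamycin and 20.6 FPKM untreated. Podxl, the sialomucin podocalyxin, stood in RIP at 25.1 FPKM with Adriamycin and 44.4 FPKM untreated, with inputs of 6.78 FPKM with Adriamycin and 6.39 FPKM untreated, and had a shift of -0.88. In both genes RIP differed and input barely did. Morn2, an overlapping member, lay just short of the bound at -0.9996, and Cnot3, Kif20a and Gm3264 had shifts of 0.95, 0.91 and 0.87. Cnot3 summed with Leng1 kept 0.78 and Kif20a summed with Brd8 and Cdc23 kept 0.59.

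Gene groups showed smaller differences that ran through many members. In the lists below, Rps27 was the only member at 1 or more and none was at -1 or less. Over all 7206 members the median difference was -0.11 in RIP and -0.06 in input. Each list is read beside all 7206 members, of which 44.7% had a shift above 0, 2.35% a shift of 0.5 or more and 5.19% a shift of -0.5 or less.

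SR proteins and other splicing regulators, the serine- and arginine-rich factors and kinases that choose splice sites, had the highest median shift, 0.32. Of 36 members, 32 were above 0, 7 were at 0.5 or more and none was at -0.5 or less. The median RIP difference was 0.13 and the median input difference -0.16, so the group was a little higher in RIP and a little lower in input with Adriamycin. Srrm1, a splicing coactivator, stood in RIP at 201 FPKM with Adriamycin and 116 FPKM untreated, with inputs of 77.4 FPKM with Adriamycin and 78.4 FPKM untreated, a shift of 0.81. The RNA helicase Ddx17 stood in RIP at 68.8 FPKM with Adriamycin and 47.5 FPKM untreated, and in input at 48.7 FPKM with Adriamycin and 60.9 FPKM untreated, a shift of 0.84. Luc7l2, a U1-associated factor, followed at 0.54. At the low end were U2af2, Srsf9 and Srsf3, with shifts of -0.37, -0.27 and -0.17. In p53+/+ cells the list's median was also 0.32, with 29 of 36 above 0.

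hnRNP genes, the family of hnRNP L itself, had a median shift of 0.10, with 22 of 33 above 0. Hnrnpul1 had 0.78, from RIP at 47.7 FPKM with Adriamycin and 34.4 FPKM untreated and input at 21.9 FPKM with Adriamycin and 27.8 FPKM untreated. Pcbp2 and Hnrnph1 had 0.57 and 0.49, and Taf15 and Elavl1 had -0.54 and -0.25. Hnrnpl, the gene of the precipitated protein, stood in RIP at 100.1 FPKM with Adriamycin and 104 FPKM untreated, and in input at 168 FPKM with Adriamycin and 173 FPKM untreated. Its own transcript thus differed little in either, while its paralog Hnrnpll had a shift of 0.28 at RIP levels of 7.28 FPKM with Adriamycin and 5.96 FPKM untreated. In p53+/+ cells the median of the hnRNP list was 0.20.

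Chromatin remodellers and histone modifiers had a median shift of 0.23, with 31 of 37 above 0, against 0.04 and 22 of 37 in p53+/+ cells. Kdm4a, a histone demethylase, stood in RIP at 9.75 FPKM with Adriamycin and 6.62 FPKM untreated, and in input at 7.88 FPKM with Adriamycin and 8.27 FPKM untreated. Kdm4a and Brd8 had shifts of 0.55 and 0.48, and Kmt2b, Arid1a and Jarid2 had -0.30, -0.26 and -0.25. The difference between genotypes was not tested.

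Genes of DNA damage signalling and repair had a median shift of 0.20, with 31 of 37 above 0, against 0.08 and 23 of 37 in p53+/+ cells. Parp2, which synthesises poly(ADP-ribose) at DNA breaks, had 0.53, from RIP at 44.1 FPKM with Adriamycin and 35.1 FPKM untreated and input at 26.7 FPKM with Adriamycin and 31.1 FPKM untreated. Ercc2, a helicase of nucleotide excision repair, and Top1, topoisomerase I, had 0.49 each. Xrcc3, Xrcc2 and Chek2 had -0.38, -0.32 and -0.31. DNA replication genes had a median of 0.07, with 25 of 45 above 0, from -0.56 (Prim2, a primase subunit) to 0.58 (Pole, the catalytic subunit of polymerase epsilon).

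G2/M genes, which drive entry into and passage through mitosis, were the clearest case in which input made the shift. All 34 were lower in input with Adriamycin, by a median of -0.57, and 30 were lower in RIP, by a median of -0.33. Of all 7206 members, 4674 were lower in input and 4628 were lower in RIP. In these bulk libraries fewer cells in a phase and less RNA per cell cannot be told apart. The median shift was 0.19, with 25 of 34 above 0 and 6 at 0.5 or more. Prc1, which bundles microtubules of the central spindle, stood in RIP at 48.4 FPKM with Adriamycin and 48.5 FPKM untreated, and in input at 17.9 FPKM with Adriamycin and 27.9 FPKM untreated, a shift of 0.60. Its RIP value was nearly the same in both libraries and its shift came from input. Kif20a, a mitotic kinesin, and Espl1, the separase, had 0.91 and 0.60. Ccna2, Ube2c and Birc5 had -0.37, -0.36 and -0.26. In p53+/+ cells the list's median was -0.02.

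**Figure D3:**
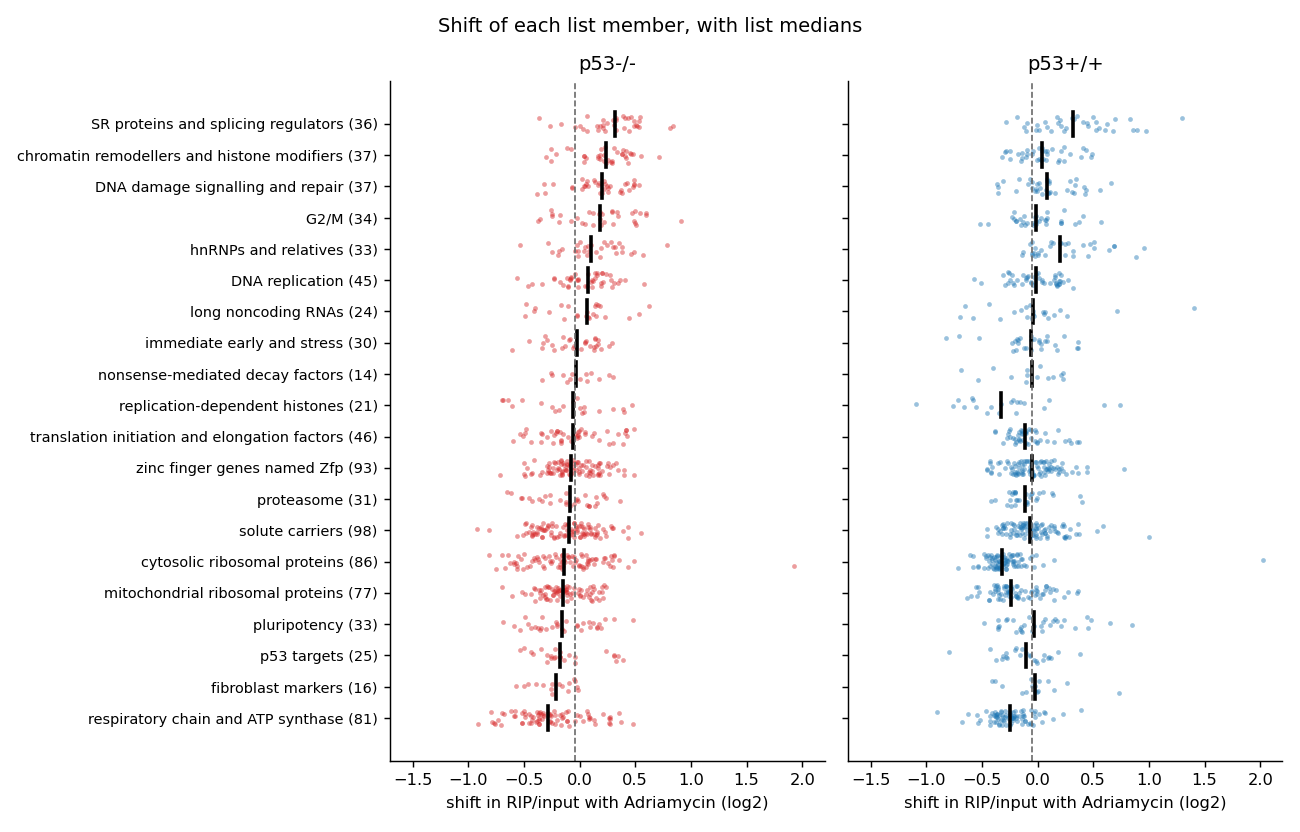
Each point is a list member, with its shift (log2) on the x axis in p53-/- cells on the left and p53+/+ cells on the right; black bars are list medians, the dashed line is the median of all 7206 members, and the number of members stands in brackets. The p53-/- medians run from 0.32 for splicing regulators to -0.28 for the respiratory chain.

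At the other end stood the respiratory chain and ATP synthase, the nuclear-encoded subunits of oxidative phosphorylation, with a median shift of -0.28. Of 81 members, 63 were below 0, 16 were at -0.5 or less and none was at 0.5 or more. The median RIP difference was -0.32 and the median input difference -0.01, so the shift lay on the RIP side. Ndufb5 stood in RIP at 11.1 FPKM with Adriamycin and 19.3 FPKM untreated, and in input at 141 FPKM with Adriamycin and 125 FPKM untreated. Uqcr11, of complex III, stood in RIP at 44.3 FPKM with Adriamycin and 68.6 FPKM untreated, and in input at 539 FPKM with Adriamycin and 478 FPKM untreated, a shift of -0.79. Atp5l, of the ATP synthase, had -0.78. The highest were Ndufa10, Ndufs1 and Cox7b, with 0.48, 0.37 and 0.36. In p53+/+ cells the median was -0.24, with 7 of 81 above 0.

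Ribosomal protein genes stood on the same side. Cytosolic ribosomal proteins had a median of -0.14, with 56 of 86 below 0 and 15 at -0.5 or less, and in p53+/+ cells a median of -0.32 with 3 of 86 above 0. Rplp1, of the ribosomal stalk, stood in RIP at 417 FPKM with Adriamycin and 745 FPKM untreated, a shift of -0.82. Rpl35a and Rpsa had -0.75 and -0.70. Mitochondrial ribosomal proteins had a median of -0.15, with 55 of 77 below 0, from -0.70 (Mrps16) to 0.23 (Mrps22).

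These groups have short transcripts, and the shift moved with transcript length over all members. The median shift was -0.17 in the shortest quartile of members (312 to 1505 bases) and 0.04 in the longest (3526 to 23495 bases), and in p53+/+ cells it was -0.19 and 0.04 for the same members. Across 7206 genes the Pearson correlation of the shift with log length was 0.25 in p53-/- and 0.31 in p53+/+ cells, a description of genes that share each library's length handling. Of the 374 members at -0.5 or less, 209 lay in the shortest quartile and 32 in the longest. Both parts moved with length, the RIP difference from -0.19 in the shortest quartile towards -0.07 in the longest, and the input difference the other way, at -0.01 in the shortest and -0.10 in the longest.

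Less the median of their length bin (10 bins), the respiratory chain kept -0.13, cytosolic ribosomal proteins stood at 0.06 and mitochondrial ribosomal proteins at -0.01. Splicing regulators kept 0.29, chromatin genes 0.21, DNA damage genes 0.18 and G2/M genes 0.15. Thus the medians of both ribosomal lists moved to near 0 or above it, and those of the other 5 lists kept their sign.

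**Figure D4:**
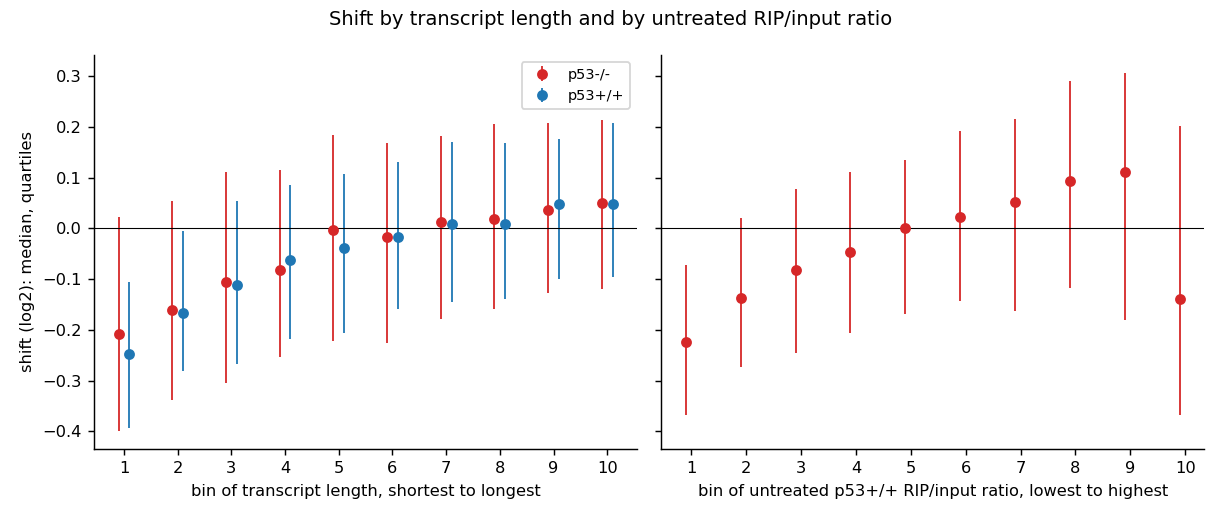
Median shift (log2) with quartiles in 10 bins of members, ordered by transcript length on the left (p53-/- and p53+/+) and by the untreated RIP/input ratio of p53+/+ cells on the right (p53-/- alone). On the left the p53-/- median runs from -0.21 to 0.05; on the right it climbs from -0.22 to 0.11 and stands at -0.14 in the highest bin.

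In p53-/- cells the shift also moved with how strongly a transcript was recovered. Members were binned by their untreated RIP/input ratio in p53+/+ cells, whose libraries do not enter the p53-/- shift. The median p53-/- shift was -0.22 in the lowest of 10 bins and 0.11 in the ninth, and -0.14 in the tenth, which holds the most strongly recovered transcripts. The p53+/+ shift, binned in turn by the untreated p53-/- ratio, did not climb in this way. Its median was -0.10 in the lowest bin, -0.01 in the fifth, -0.07 in the ninth and -0.12 in the tenth. In 10 bins of input level, the median p53-/- shift was 0.01 in the lowest bin and -0.18 in the highest. By quartile of input level it was 0.002 in the lowest and -0.12 in the highest.

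Among transcripts with very high RIP/input ratios is Mdm2, which encodes the ubiquitin ligase of p53. It stood in p53-/- RIP at 88.3 FPKM with Adriamycin and 95.4 FPKM untreated, and in input at 16.5 FPKM with Adriamycin and 14.8 FPKM untreated, a shift of -0.26. Cdkn1a, which encodes the cell-cycle inhibitor p21, stood in RIP at 9.18 FPKM with Adriamycin and 7.88 FPKM untreated, and in input at 29.4 FPKM with Adriamycin and 21.5 FPKM untreated, a shift of -0.22. Over the list of p53 targets in these p53-/- cells, the median was -0.18, with 19 of 25 below 0. Sulf2, Tigar and Phlda3 were lowest, at -0.54, -0.50 and -0.44, and Ckap2, Ddb2 and Psrc1 highest, at 0.39, 0.34 and 0.32. In p53+/+ cells the list's median was -0.10.

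Pluripotency genes were lower with Adriamycin in both kinds of library, by a median of -0.53 in RIP and -0.33 in input. Their median shift was -0.15, with 21 of 33 below 0. Dppa5a, a marker of embryonic stem cells, stood in RIP at 476 FPKM with Adriamycin and 768 FPKM untreated, with inputs of 5299 FPKM with Adriamycin and 5308 FPKM untreated, a shift of -0.69. Sall4 and Gdf3 had -0.59 and -0.54. Nanog stood in RIP at 21.6 FPKM with Adriamycin and 30.2 FPKM untreated, and in input at 93.5 FPKM with Adriamycin and 151 FPKM untreated, and thus had a shift of 0.23 although both values were lower. Klf5 and Nr0b1 had 0.47 and 0.31.

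All 16 fibroblast marker genes among the members were below 0, with a median of -0.22. They are members through their level in p53-/- input, and 8 of the 16 were under 1 FPKM in both p53+/+ inputs, where the added 1 FPKM holds a shift near 0, so no p53+/+ median is set beside it. Fn1, fibronectin, stood in RIP at 178 FPKM with Adriamycin and 249 FPKM untreated, and in input at 103 FPKM with Adriamycin and 96.4 FPKM untreated, a shift of -0.58. Sparc and S100a4 had -0.50 and -0.47, and Postn, Col6a1 and Col1a1 lay between -0.01 and -0.04. Whether fibroblasts were present, and what part they had in the p53-/- shifts, was not tested.

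Long noncoding RNAs had a median of 0.07 over 24 members. All 24 were lower in input with Adriamycin, against 4674 of all 7206 members. The median of this list stood 0.11 above that of all members. It stood 0.20 above it less the length bin, 0.06 with quantile normalization and 0.02 without overlapping genes. Rian, an imprinted transcript, stood in RIP at 74.1 FPKM with Adriamycin and 47.8 FPKM untreated at inputs of 34.9 FPKM each, a shift of 0.62. Malat1, a nuclear-retained RNA, and Firre had 0.53 and 0.44, and Epb41l4aos, Bvht and Tug1 had -0.49, -0.48 and -0.41. The medians of the remaining lists lay near that of all members. Immediate early and stress genes had -0.02 (30 members), nonsense-mediated decay factors -0.03 (14), translation factors -0.06 (46), replication-dependent histones -0.06 (21), the proteasome -0.08 (31), Zfp zinc finger genes -0.08 (93) and solute carriers -0.09 (98). Among the histones 5 of 21 were at -0.5 or less, and in the proteasome 4 of 31, against 5.19% of all 7206 members. Neither list had a member at 0.5 or more. The histone median was 0.15 less the length bin, and -0.33 in p53+/+ cells. No primitive endoderm gene of 8 reached the input limit.

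Short noncoding RNAs gave the most extreme values of the 7222 members, and with them the count at 1 or more was 16 (0.222%), and that at 0.5 or more was 178 (2.46%). Snora68, a small nucleolar RNA, was at 9872 FPKM in RIP with Adriamycin and listed at 0 in untreated RIP, with inputs of 2292 FPKM with Adriamycin and 1230.3 FPKM untreated. In p53+/+ cells it was listed at 0 in input with Adriamycin, so it was not read in the same way there. Mir682 was the one short RNA listed at 0 in the untreated RIP of both genotypes and present in RIP with Adriamycin of both. It stood at 519.9 FPKM in p53-/- RIP with Adriamycin, with inputs of 1055 FPKM with Adriamycin and 1361 FPKM untreated, and at 399.8 FPKM in p53+/+ RIP with Adriamycin, with inputs of 1123 FPKM with Adriamycin and 696 FPKM untreated. No fold is given against a library listed at 0. Other short RNAs went to 0 in the reverse direction. Snora3 and Snora65 stood at 77.4 and 97.9 FPKM in untreated p53+/+ RIP and were listed at 0 in p53+/+ RIP with Adriamycin. Whether the Mir682 values reflect recovery with hnRNP L was not tested. The Mir682 hairpin is shown because its pattern was shared by both genotypes. It has 96 bases and is RefSeq's, at chr13:75645046-75645141 on the plus strand of GRCm38.p6, with the mature miRNA in capitals.
Mir682: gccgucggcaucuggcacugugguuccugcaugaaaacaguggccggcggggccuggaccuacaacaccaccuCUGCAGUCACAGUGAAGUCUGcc

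Snora43 had a shift of 2.48, and the lowest of the class were Rn4.5s, Mir22hg and Rab26os, with -0.87, -0.37 and -0.28. The 16 set aside also hold Atp5k, a protein-coding gene with records under 300 bases, and long host genes such as Mir17hg that the symbol rule took with them.

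The p53+/+ libraries give the same measure with no library in common. Across the 7206 members the shift of p53-/- and of p53+/+ cells had a Pearson correlation of 0.41 and a Spearman correlation of 0.42, and of 0.36 and 0.37 after the median of each length bin was taken off. The points share transcript models and preparation, so this is a description. Of the 169 members at 0.5 or more in p53-/- cells, 128 were above 0 in p53+/+ cells, where 41.6% of all members were above 0. Of the 374 at -0.5 or less, 331 were below 0 there.

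At 0.5 or more, 30 members were shared, which is 17.8% of the 169 in p53-/- and 15.8% of the 190 (2.64%) in p53+/+ cells. At -0.5 or less, 67 were shared, 17.9% of 374 and 25.3% of the 265 (3.68%) in p53+/+ cells. At 1 or more the genotypes shared 3 members of 8 in p53-/- and 13 (0.18%) in p53+/+ cells, and these were Rps27, Gm12669 and Amd2, each of which overlaps another gene with a shift of the opposite sign in p53-/- cells. At -1 or less they shared none of 8 in p53-/- and 11 (0.153%) in p53+/+ cells.

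**Figure D5:**
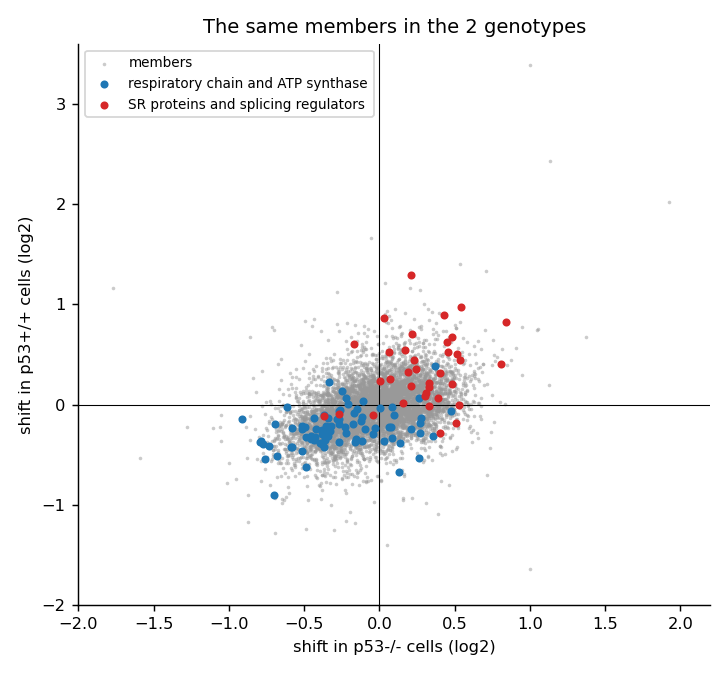
Each point is 1 of 7206 members, with its shift in p53-/- cells on the x axis and in p53+/+ cells on the y axis, both log2, from libraries that are not shared. Splicing regulators (red) lie mostly in the upper right, with 32 of 36 above 0 in p53-/- and 29 of 36 in p53+/+, and respiratory chain genes (blue) mostly in the lower left.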

How the data were processed

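FPKM of each RefSeq transcript record, with lower and upper bounds, a status, a length and a position, comes from tables the authors deposited, 1 for each library, per the file headers. The coverage in the same tables, also computed by the authors, served to estimate depth (coverage times length, summed). The submitters' processing notes name TopHat2 2.0.8, TopHat, Cufflinks, CASAVA 1.8.2 and the mm9 build, with roles, settings and strand handling not given in the sources used here.

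By accession, 30227 of 30769 records (98.2%) had a symbol in a GRCm38.p6 gene table, used for names alone, and 65 of the 7222 members have none. FPKM was summed per gene, scaled by median ratios over the 8 libraries (p53-/- factors 1.01, 1.36, 0.943 and 1.26 for Adriamycin RIP, Adriamycin input, untreated RIP and untreated input), and log2 taken after adding 1 FPKM, which understates differences of low genes. A failed status concerned 8 members, which were kept. Spans were compared without regard to strand. The calculation was tested on simulated data. Python 3.11.15, pandas 2.3.3, numpy 2.4.6 and matplotlib 3.10.9 were used.

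Named genes are the 12 highest and 12 lowest shifts other than short noncoding RNAs, list members past 1, up to 3 at either end of a list described, the short noncoding RNAs as a class, and Trp53, Hnrnpl, Hnrnpll, Mdm2 and Cdkn1a. The members, lists and this rule were chosen with earlier results of these data known. Scaling, pseudocount, input limit, choice of record and treatment of short RNAs were varied. p-values were not computed. Some results are not reported here because they are withheld for evaluation.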

Additional observations from a re-analysis of the deposited data

Results flagged for a closer look

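Among members not listed at 0 in any library, 5 had a shift that was 1 or more in size in both genotypes and of opposite sign. With 1 pair of libraries a side in each genotype, the difference was not tested. Akr1b3 had a shift of -1.77 in p53-/- cells and 1.16 in p53+/+ cells, with all 4 RIP values under 3 FPKM. Polr2d had 1.00 in p53-/- cells and -1.64 in p53+/+ cells, where its RIP value with Adriamycin was near 0. Both genes lie across another expressed gene. Among small nucleolar RNAs, Snora64 had 1.07 in p53-/- cells and -2.05 in p53+/+ cells. Snora78 had 2.09 in p53-/- cells and -2.12 in p53+/+ cells, and Snord22 had 2.13 in p53-/- cells and -1.33 in p53+/+ cells. All 3 were lower in input with Adriamycin in p53-/- cells, with Snord22 at 65.2 FPKM with Adriamycin and 180 FPKM untreated.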

How the results depend on the processing

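The median shift of all members, -0.04, lay between -0.06 and -0.02 under 13 alternatives, and another, which takes off the median of each length bin, sets it to 0 by construction. The 24 genes with the highest and lowest shifts kept their sign. The count at 1 or more, 16 with short noncoding RNAs, was 8 without them, 9 with a pseudocount of 5 and 42 when the record with the highest mean FPKM stood for each gene. The count at -1 or less, 8, was 13 with a pseudocount of 0.1, 3 with a pseudocount of 5, 16 with an input limit of 1 FPKM, 4 with a limit of 10 FPKM and 36 with the highest record alone. Alternatives added after seeing the data gave 178 and 375 at a bound of 0.5, 8 and 4 with the length bin's median taken off and short noncoding RNAs left out (8 and 8 without the length step), and 1 and 5 without overlapping genes and short RNAs. The cause of these moves was not tested beyond what each setting itself leaves out. List medians, taken less that of all members, moved by less than 0.25 in 279 of 280 cases, the exception being histones at a limit of 10 FPKM (-0.44). Only splicing regulators (0.36) and chromatin genes (0.28) differed from all members by more than that margin. For the other lists this count therefore does not show that a difference held. Within that margin the medians of cytosolic ribosomal proteins (-0.17 to 0.06), translation factors, the proteasome, nonsense-mediated decay factors, histones and stress genes took either sign against all members. Those 24 genes stayed on their side of 1 in 282 cases, moved past it in 10 and short of it in 21; the other genes named were not varied singly. No paired analysis was possible because the labels give no replicate numbers and each group has 1 library, and for the same reason no replicate could be left out. The spread between cultures, recoveries and preparations is not measured by 1 library a group, so no shift is shown to exceed it.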

Other observations

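Some gene families, looked up after values were seen and chosen by symbol, stood away from the median of -0.04. Cohesin subunits and loaders had a median shift of 0.30, with 6 of 7 above 0, from Stag2 at -0.01 to Rad21 at 0.85. Kif kinesins had 0.23, with 12 of 13 above 0, and like the G2/M genes were lower in input by a median of -0.49. RNA helicases named Ddx or Dhx had 0.16, with 36 of 46 above 0, and 0.11 with 33 of 46 in p53+/+ cells. Usp ubiquitin proteases had 0.18, with 20 of 27 above 0.

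Genes of mitochondrial protein import named Timm or Tomm had a median of -0.28 with 4 of 23 above 0, and -0.21 with 4 of 23 in p53+/+ cells. Less their length bin they had -0.20. Lsm and Snrp genes, whose products form the core of spliceosomal particles, had -0.22 as measured and -0.02 less their length bin. Ube2 conjugating enzymes had -0.19 with 6 of 29 above 0, against 0.05 and 16 of 29 in p53+/+ cells, a difference that was not tested. Aminoacyl-tRNA synthetases as a family had 0.03, so Lars2 at -1.28 and Qars at 1.05 stood at its ends. Qars summed with NM_001168270, which overlaps it, had 0.005.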
